A study of Rattus norvegicus with 12 samples.

Results

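The change that chronic epilepsy makes to the difference between superficial and deep CA1 was measured in all 12 libraries of the series, that is, in both sublayers of 3 control and 3 epileptic rats. For each animal and each Ensembl gene identifier the log2 CPM (counts scaled by library size) in the deep library was subtracted from that in the superficial library, and the 3 epileptic differences were compared with the 3 control differences. A positive difference is called a superficial bias and a negative one a deep bias. The difference between the 2 conditions is called the interaction. It is positive where the epileptic animals lay toward the superficial side of the controls and negative where they lay toward the deep side.

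CA1 pyramidal cells sit in a layer whose deep part faces the stratum oriens and whose superficial part faces the stratum radiatum. Cells of the 2 parts are known to differ in birth date, in inputs, in firing during hippocampal rhythms and in the calcium-binding protein calbindin, which is typical of the superficial cells. Kainate, an agonist of ionotropic glutamate receptors, provokes prolonged seizures, after which rodents develop spontaneous seizures together with loss of neurons and activation of glia in the hippocampus.

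All rats were male Wistar rats labelled as adults of 45 to 50 days and 180 to 200 g. The epileptic group had received repeated intraperitoneal kainate (5 mg/kg) up to status epilepticus, then diazepam (4 mg/kg) 1 h later and dextrose in saline, and was sampled 6 to 8 weeks after status. The control group had received saline or DMSO as vehicle and otherwise similar care, and had no seizures at any time. In the epileptic group, per the labels, seizures were noticed on handling or were recorded in some of the animals. Cell bodies of each sublayer were cut from 20 µm frozen sections by laser microdissection.

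The libraries held 16135358 to 25893962 counts in genes, and every epileptic library held more than any control library. Alignments outside annotated features made up 35.8 to 44.0% of all tallied alignments in the 6 control libraries and 43.0 and 37.7% in the deep and superficial libraries of epileptic animal 1, but 26.7 and 25.3% in those of animal 2 and 22.3 and 25.6% in those of animal 3. The files list genes by Ensembl identifier only, 0 of 32662 could be paired with a symbol, and the defining markers of pyramidal, glial, vascular and interneuron cells were therefore not analysed here. No function is given for any identifier below, and 2 identifiers are named in each direction. In tissue pieces of this kind, fewer cells of a type and less RNA per cell cannot be told apart, which holds for every value that follows.

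No single identifier had a sublayer difference that passed the test for a change with epilepsy. A quasi-likelihood test in edgeR that blocked on the animal called 0 of 14791 (0%) at an adjusted p below 0.05, and the smallest adjusted p was 0.1636. The unadjusted p was below 0.05 for 1014 identifiers (6.86% of those tested), 631 toward the superficial side (4.27%) and 383 toward the deep side (2.59%). The balance of this count depended on how libraries were scaled, with 694 superficial against 292 deep under RLE size factors and 993 against 133 under library totals alone. Among identifiers that also had an interaction of at least 1.5-fold, 347 lay toward superficial (2.35%) and 64 toward deep (0.433%). The superficial side held more of these large interactions under the other scalings as well, with 369 against 61 and 440 against 42. At a size of at least 2-fold the counts were 180 and 30, and at 3-fold 42 and 4. The 3 epileptic differences lay entirely above the 3 control ones in 820 identifiers (5.54%) and entirely below in 897 (6.06%). Full separation of 3 from 3 animals cannot go below p = 0.1 in a two-sided exact permutation test, so these counts are a description. In 154 (1.04%) all controls were deep-biased and all epileptic animals superficial-biased, and in 155 (1.05%) the reverse held. The prevailing direction of both counts turned with the scaling. RLE size factors gave 931 above and 724 below, and library totals 1356 and 410. For opposite signs the counts were 169 and 119 under RLE size factors and 267 and 62 under library totals.

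DESeq2 called 2 identifiers, both toward superficial, and limma-voom with sample quality weights called 106, of which 87 lay toward superficial. Limma on the 6 per-animal differences, the comparison in its plainest form, called 0 and had 866 at an unadjusted p below 0.05. Without the animal as a block edgeR also called 0, with 68 at an unadjusted p below 0.05. The count depended on 2 epileptic animals, since edgeR called 76 without epileptic animal 1 and 13 without epileptic animal 3.

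**Figure D1:**
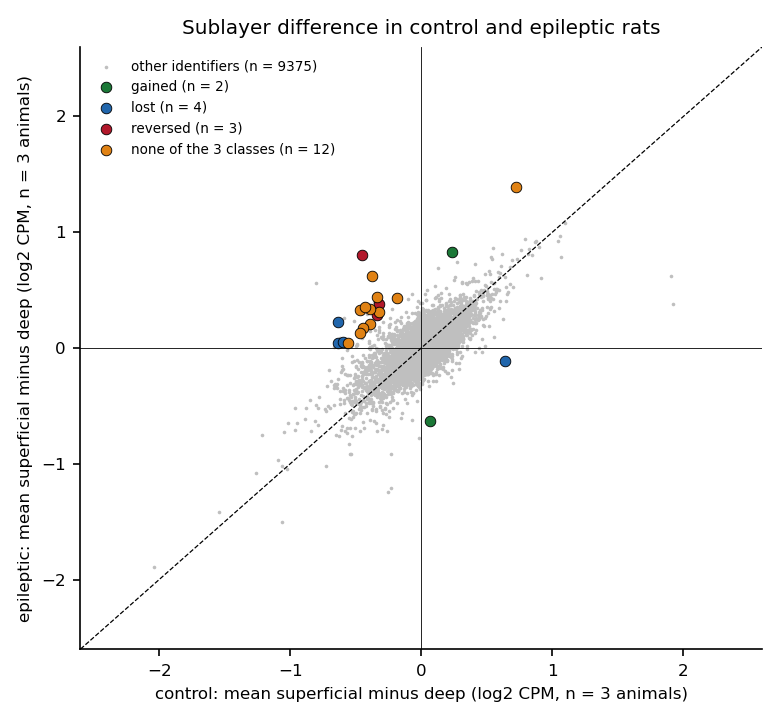
Mean superficial minus deep difference (log2 CPM) in the 3 epileptic rats against that in the 3 control rats, 1 point per identifier with a mean log2 CPM of at least 3; the dashed line marks equal differences. Most identifiers lie along the line, and 17 of the 19 coloured points above it have a deep bias in the controls.

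The smallest p belonged to ENSRNOG00000013578, a weakly expressed identifier that lay on opposite sides in the 2 conditions. In controls 1, 2 and 3 it had 1.91, 2.04 and 2.79 CPM in deep and 0.765, 1.55 and 1.45 CPM in superficial CA1. In epileptic animals 1, 2 and 3 it had 1.29, 6.93 and 20.2 CPM in deep and 2.09, 10.8 and 45.2 CPM in superficial CA1. Every control thus had more of it in the deep library and every epileptic animal more in the superficial one, although its level in epileptic animal 1 was close to that of the controls. The per-animal differences were −1.21, −0.37 and −0.90 log2 units in controls and 0.66, 0.63 and 1.16 in epileptic animals, without overlap. The interaction was 1.80 log2 units (SE 0.29, adjusted p = 0.1636 by edgeR, opposite signs in 6 of 6 animals). Within controls the deep bias of −0.84 did not pass (adjusted p = 0.0648), whereas within epileptic rats the superficial bias of 0.95 did (adjusted p = 0.000233). Across 17 alternative analyses the interaction ranged from 1.48 to 2.05 log2 units and the adjusted p from 1.486e-09 to 0.9998, with 6 alternatives passing. The smallest adjusted p came from edgeR's legacy method with no low-count filter, a fit added after seeing the data.

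ENSRNOG00000005195 showed the same crossing in an abundant transcript. Its deep libraries had 367, 463 and 331 CPM in controls and 315, 571 and 1292 CPM in epileptic animals 1, 2 and 3. Its superficial libraries had 272, 327 and 291 CPM in controls and 342, 610 and 1713 CPM in epileptic animals. The deep library was the higher one in each control and the superficial library in each epileptic animal, with animal 3 at the highest level in both sublayers. The differences of −0.43, −0.50 and −0.18 in controls and 0.12, 0.10 and 0.41 in epileptic animals gave an interaction of 0.58 log2 units (SE 0.10, adjusted p = 0.1636 by edgeR). Here the deep bias passed within controls (−0.37, adjusted p = 0.00348) and the superficial bias within epileptic rats did not (0.21, adjusted p = 0.0599). The adjusted p of the interaction ranged from 2.825e-11 to 0.9998 over 18 alternatives, with 6 passing, and its size from 0.48 to 0.67. The smallest adjusted p was again that of the legacy method with no low-count filter.

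In the other direction, ENSRNOG00000002773 had a weak deep bias in controls and a stronger one in epileptic rats. Deep and superficial CA1 had 48.3 and 39.6, 53.2 and 51.4, and 48.6 and 44.7 CPM in controls 1, 2 and 3. They had 60.2 and 35.8, 59.5 and 43.0, and 45.9 and 30.4 CPM in epileptic animals 1, 2 and 3. The differences, −0.29, −0.05 and −0.12 against −0.75, −0.47 and −0.59, did not overlap. Unlike the 2 identifiers above, its levels in epileptic animals stayed near those of the controls, at 55.2 ± 8.11 against 50.04 ± 2.72 CPM in deep and 36.4 ± 6.32 against 45.2 ± 5.92 CPM in superficial CA1 (SD, n = 3). The interaction was −0.45 (SE 0.10, adjusted p = 0.3036 by edgeR). Over 18 alternatives it ranged from −0.52 to −0.36 and its adjusted p from 0.002719 to 0.9998, with 3 alternatives passing.

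ENSRNOG00000001585 had a small superficial bias in each control and a small deep bias in each epileptic animal. Its differences were 0.17, 0.07 and 0.13 log2 units in controls and −0.22, −0.17 and −0.15 in epileptic animals. Deep CA1 had 301, 297 and 266 CPM and superficial CA1 340, 312 and 290 CPM in controls. Epileptic animals 1, 2 and 3 had 346, 236 and 217 CPM in deep and 296, 209 and 195 CPM in superficial CA1. Levels in animal 1 were near or above those of the controls and levels in animals 2 and 3 below them, but the sign of the difference was the same in all 3. Its interaction of −0.31 (SE 0.07, adjusted p = 0.3036 by edgeR) was small. Over 18 alternatives it ranged from −0.33 to −0.25 and its adjusted p from 0.01084 to 0.9998, with 3 alternatives passing.

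**Figure D2:**
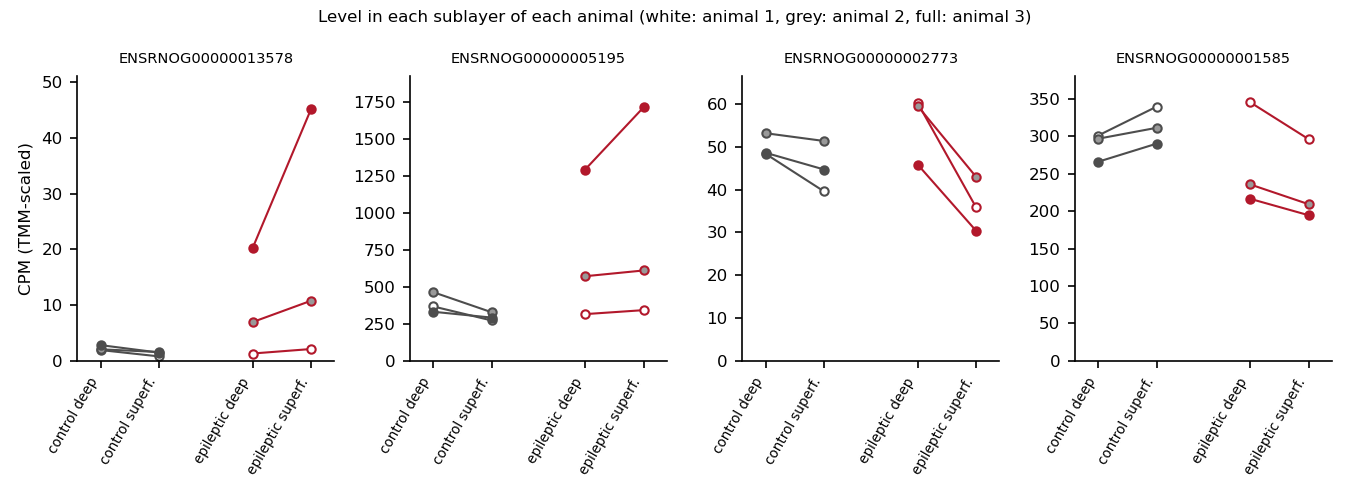
TMM-scaled CPM of the 4 named identifiers in the deep and superficial library of each animal, joined by a line; grey lines are controls, red lines epileptic rats. For the first 2 identifiers the control lines fall and the epileptic lines climb from deep to superficial, with epileptic animal 3 highest at 45.2 and 1713 CPM.

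Identifiers with a mean log2 CPM of at least 3, of which there were 9396, were then sorted by what happened to their bias. Of these, 251 had an unadjusted p below 0.05 toward superficial (2.67%) and 299 toward deep (3.18%). This balance turned too, to 294 against 215 under RLE size factors, 520 against 85 under library totals, and 305 against 209 where the level minimum was applied before the fit. An identifier entered when its 3 epileptic and 3 control differences did not overlap and its interaction had an unadjusted p below 0.05 and a size of at least 1.5-fold. These values chose the members, so the classes are a description and carry no test. In all 21 identifiers entered, 19 toward superficial (0.202% of the 9396) and 2 toward deep (0.0213%). Their adjusted p values ran from 0.1636 to 0.7124. The member nearest the size threshold had a difference of mean differences of 0.59 log2 units, and the nearest of the 380 identifiers that met all criteria but size had 0.58.

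A bias was counted as gained where the controls differed by less than 1.2-fold between sublayers and all 3 epileptic animals were biased to one side by at least 1.5-fold on average. This was met by 2 identifiers, 1 on each side. The one gained on the deep side had 9.53, 6.18 and 8.37 CPM in deep and 10.4, 7.33 and 7.41 CPM in superficial control libraries. In epileptic animals 1, 2 and 3 it had 27.0, 20.8 and 9.82 CPM in deep and 13.6, 13.8 and 7.79 CPM in superficial CA1. The deep bias was therefore widest in animal 1 (−0.99) and narrowest in animal 3 (−0.33), with an interaction of −0.75 (SE 0.18, adjusted p = 0.3036 by edgeR). The one gained on the superficial side had 8.10 to 8.54 CPM in deep and 8.23 to 10.7 CPM in superficial control libraries. Its deep libraries stayed at 7.61 to 14.5 CPM in epileptic rats while the superficial ones had 23.6, 28.9 and 9.82 CPM in animals 1, 2 and 3. All 3 controls were on the superficial side too, at 0.02, 0.36 and 0.33 log2 units, against 1.13, 0.99 and 0.36 in epileptic animals 1, 2 and 3. Epileptic animal 3 (0.364) lay only just above control 2 (0.361). The interaction was 0.66 (SE 0.18, adjusted p = 0.3969 by edgeR), and again animal 3 showed the narrowest bias of the epileptic animals.

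A bias was counted as lost where all 3 controls were biased to one side by at least 1.5-fold on average and the epileptic mean was under 1.2-fold. There were 4 such identifiers. A superficial bias was lost in 1, which had 18.0, 15.1 and 7.71 CPM in deep and 24.6, 24.5 and 13.3 CPM in superficial control libraries. In epileptic rats both sublayers were low, at 3.77, 6.74 and 6.74 CPM in deep and 2.65, 6.44 and 7.93 CPM in superficial CA1. The drop in level was larger on the superficial side, from a mean of 20.8 to 5.67 CPM against 13.6 to 5.75 CPM on the deep side. A deep bias was lost in the other 3. For the one with the smallest p of these, deep and superficial means were 6.995 and 4.49 CPM in controls and 18.0 and 22.6 CPM in epileptic rats (interaction 0.93, SE 0.16, adjusted p = 0.1636 by edgeR). The next had 18.3 and 11.9 CPM in controls and 15.9 and 16.4 CPM in epileptic rats, so that only its superficial mean lay higher. The last had 8.36 and 5.45 CPM in controls and 16.8 and 19.03 CPM in epileptic rats. In each of the 4 the epileptic mean was taken over animals on both sides. Epileptic animals 1, 2 and 3 had −0.49, −0.06 and 0.23 log2 units where a superficial bias was lost. Of those that lost a deep bias, the first had −0.02, 0.28 and 0.42 and the next 0.0006, −0.18 and 0.31. The last had −0.20, −0.17 and 0.52, so that animals 1 and 2 stayed on the deep side.

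A reversed bias, with all controls on one side, all epileptic animals on the other and both means at least 1.2-fold, was met by 3 identifiers. All 3 went from deep in controls to superficial in epileptic rats. In epileptic animal 1 their differences were only 0.01 to 0.02 log2 units, so that the reversal was in practice one of animals 2 and 3, at 0.23 to 0.95 and 0.62 to 1.45. The largest had 2.67 to 4.24 CPM in deep and 1.67 to 3.16 CPM in superficial control libraries. It had 3.00, 24.4 and 76.0 CPM in deep and 3.02, 47.1 and 207 CPM in superficial CA1 of epileptic animals 1, 2 and 3. Its interaction was 1.60 log2 units (SE 0.35, adjusted p = 0.3036 by edgeR). Animal 1 thus had the control level of this identifier in both sublayers, and animal 3 the highest level in both.

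The remaining 12 members met none of these 3 definitions, and all lay toward superficial. In 11 of them the mean bias crossed from deep in controls to superficial in epileptic rats, but 9 of the 11 were still on the deep side in epileptic animal 1. The twelfth kept its superficial bias and had a wider one in epileptic rats. It had 18.0, 18.6 and 24.1 CPM in deep and 30.8, 31.6 and 37.6 CPM in superficial control libraries. In epileptic rats it had 5.10, 8.57 and 11.01 CPM in deep and 13.6, 24.6 and 26.3 CPM in superficial CA1. Both sublayers were lower in every epileptic animal than in any control, and the deep one by more, so that the superficial bias went from 0.64 to 0.77 log2 units in controls to 1.25 to 1.51 in epileptic animals. The interaction was 0.67 log2 units (SE 0.12, adjusted p = 0.1636 by edgeR).

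**Figure D3:**
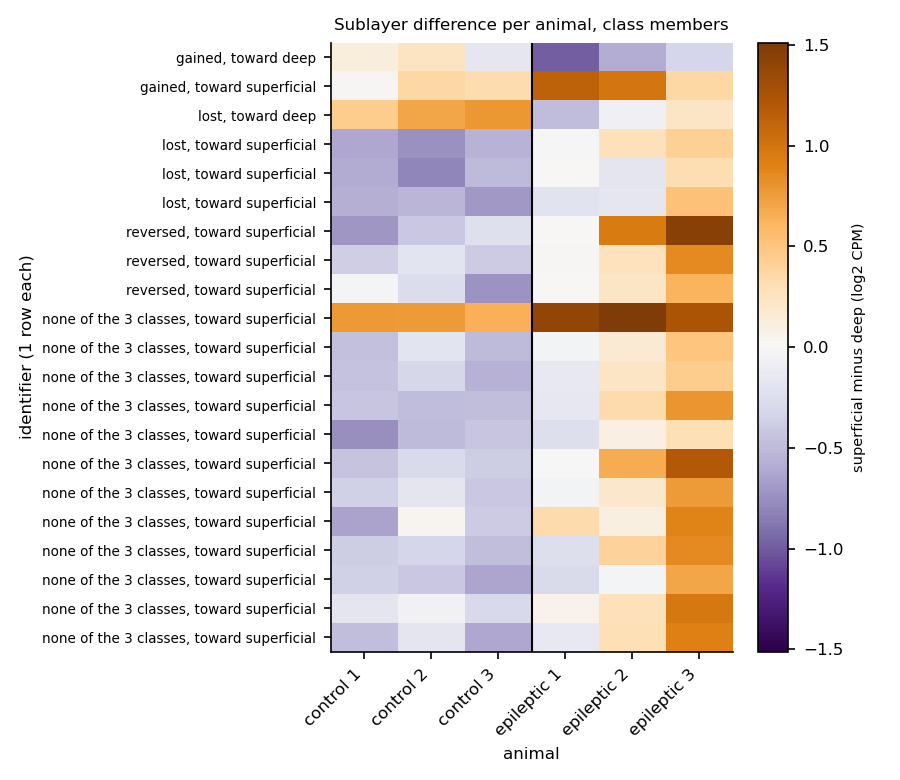
Superficial minus deep difference (log2 CPM, colour scale) of the 21 class members, 1 row per identifier and 1 column per animal; orange is a superficial and purple a deep bias. Among the 19 members toward superficial, epileptic animal 3 has the highest value of the epileptic animals in 17 and epileptic animal 1 the lowest in 15.

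The 3 epileptic animals contributed unequally to these classes. Of the 19 members toward superficial, 11 were on the deep side in epileptic animal 1 and 19 on the superficial side in epileptic animal 3. With the whole classification repeated without epileptic animal 1 there were 62 members toward superficial and 2 toward deep, including 32 reversed. Without epileptic animal 3 there were 7 toward superficial and 16 toward deep, so the prevailing direction turned. Without control 2 the numbers were 34 and 2. Epileptic animals 1, 2 and 3 also had falling shares of alignments outside annotated features in their deep libraries, at 43.0, 26.7 and 22.3%, though in superficial CA1 animals 2 and 3 were alike at 25.3 and 25.6%. The part of that share in the class counts was not tested.

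The larger set of 347 identifiers with an unadjusted p below 0.05 and an interaction of at least 1.5-fold toward superficial showed the same arrangement. Their median difference was −0.51, −0.39 and −0.53 log2 units in controls 1, 2 and 3 and −0.07, 0.37 and 0.82 in epileptic animals 1, 2 and 3. A deep bias in the control mean was present in 338 of the 347, and a superficial bias in the epileptic mean in 319. These identifiers were chosen for their interaction, so the counts describe how it was made up. Over all identifiers, the sublayers differed in 1200 within controls (8.11%) and in 1632 within epileptic rats (11.0%) at an adjusted p below 0.05 by edgeR. Of the 347, 36 passed as deep-biased in controls and 138 as superficial-biased in epileptic rats, 0 passed in both on opposite sides, and 173 passed in neither. Over all 14791 identifiers the same counts were 592, 858, 0 and 12638.

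Most of the 347 were at higher levels in epileptic than in control rats in both sublayers, more so in the superficial one. The mean superficial level was higher in epileptic rats in 343 (98.8%, against 48% of all identifiers). The mean deep level was higher in 270 (77.8%, against 49%), and both were higher in 270. The interaction is the difference between these 2 changes and rests on the same samples, so they are given side by side only. The low-count filter asks for counts in as few libraries as 1 group holds. Weakly expressed identifiers could therefore enter through the epileptic libraries alone, and how many did so was not counted. The median change was 1.47 log2 units in superficial and 0.61 in deep CA1, compared with −0.01 in both over all 14791 identifiers. In a further 73 the superficial mean was higher and the deep mean lower than in controls. The median level of the set was 0.61, 0.78 and 1.00 log2 CPM in deep and 0.14, 0.35 and 0.53 in superficial control libraries. In epileptic animals 1, 2 and 3 it was 0.70, 1.43 and 2.29 log2 CPM in deep and 0.58, 1.78 and 3.17 in superficial CA1. Epileptic animal 1 thus lay within the control range in deep CA1, and animals 2 and 3 lay above all controls in both sublayers.

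The 64 identifiers toward deep were made up differently. Their median difference was 0.42, 0.45 and 0.38 log2 units in controls and −0.63, −0.44 and −0.30 in epileptic animals 1, 2 and 3, so that animal 1 lay farthest from the controls. The deep mean was higher in epileptic than in control rats in 53 of them and the superficial mean lower in 48, with both in 37. Over all 14791 identifiers these counts were 7253, 7685 and 1488. The median change was 0.47 log2 units in deep and −0.43 in superficial CA1. Within controls 4 passed as superficial-biased and within epileptic rats 10 as deep-biased, and 50 passed in neither, compared with 608, 774 and 12638 over all identifiers.

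At an unadjusted p below 0.05 with no size minimum, the 2 directions were also found at different expression levels. Among identifiers with a mean log2 CPM under 1, 167 of 2679 had an unadjusted p below 0.05 toward superficial and 45 toward deep. Between 1 and 3 the numbers were 213 and 39 of 2716, and between 3 and 5 they were 163 and 80 of 4254. At 5 and over the balance turned, with 88 of 5142 toward superficial (1.71%) and 219 toward deep (4.26%). The size of that turn depended on the scaling. At 5 and over RLE size factors kept it in weaker form, with 109 toward superficial against 148 toward deep. Library totals alone reversed it, with 233 against 55. Below a mean log2 CPM of 3 the superficial side was the larger under all 3 scalings, for instance at 1 to 3 with 222 against 33 and 264 against 19. Weakly expressed identifiers were measured less exactly, with a median SE of the interaction of 0.47 log2 units under a mean log2 CPM of 1 and 0.09 at 5 and over. Large interactions were mostly weakly expressed on both sides. Of the 347 toward superficial, 317 had a mean log2 CPM under 3. Of the 64 toward deep, 45 lay under 1 and 16 at 1 to 3, where 2679 and 2716 of all 14791 identifiers lay. The median level was 1.10 log2 CPM in the superficial set and 0.46 in the deep set.

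**Figure D4:**
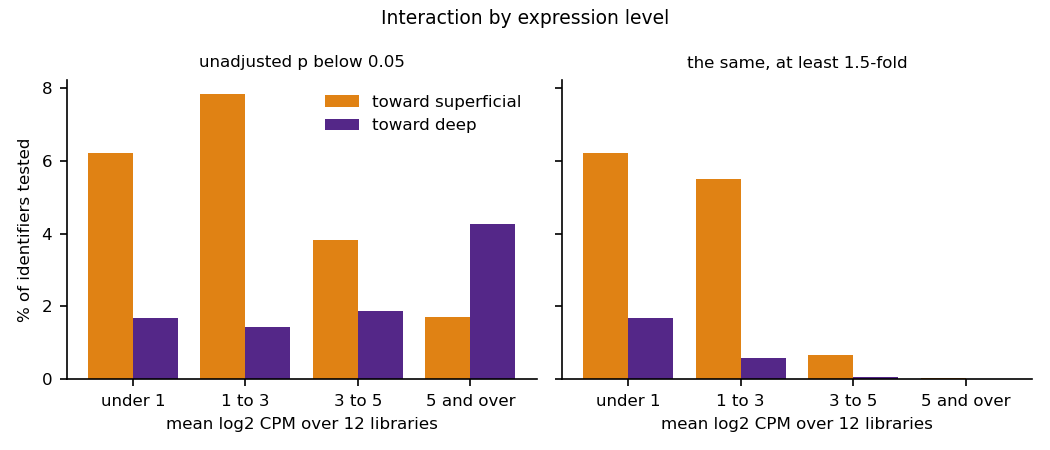
Share of identifiers tested (%) with an unadjusted interaction p below 0.05 (left) and in addition a size of at least 1.5-fold (right), by mean log2 CPM over the 12 libraries; orange bars are toward superficial, purple bars toward deep. At a mean log2 CPM of 1 to 3 the left bars stand at 7.84% and 1.44%, and at 5 and over at 1.71% and 4.26%.

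Whether the direction of such a set recurs in animals not used to choose it was examined by leaving out 1 epileptic and 1 control animal at a time, in 9 combinations. Sets were chosen again by the same p and size from the remaining 4 animals, and the epileptic minus control difference was read in the 2 animals left out. With epileptic animal 2 left out, 75.6 to 82.2% of the identifiers chosen toward superficial had the same direction in the animals left out, against 47.8 to 50.1% of all identifiers. With epileptic animal 3 left out the share was 68.4 to 73.7%, against 47.7 to 49.1%. With epileptic animal 1 left out it was 51.8 to 57.7%, close to the 48.2 to 51.7% of all identifiers. The median difference of these sets in the animals left out was 0.36 to 0.52 log2 units for animal 2, 0.37 to 0.68 for animal 3 and 0.03 to 0.10 for animal 1. For identifiers chosen toward deep, 36.4 to 55.8% had the same direction in the animals left out. The superficial direction was thus found again more often than among all identifiers with animal 2 or 3 left out, and about as often with animal 1 left out. The sets and all identifiers were not matched by expression level. Weakly expressed identifiers lay toward superficial as a whole, with a median interaction of 0.13 log2 units under a mean log2 CPM of 1. At 5 and over it was −0.03. The part of level in these shares was not tested. The combinations share animals and are not separate tests.

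**Figure D5:**
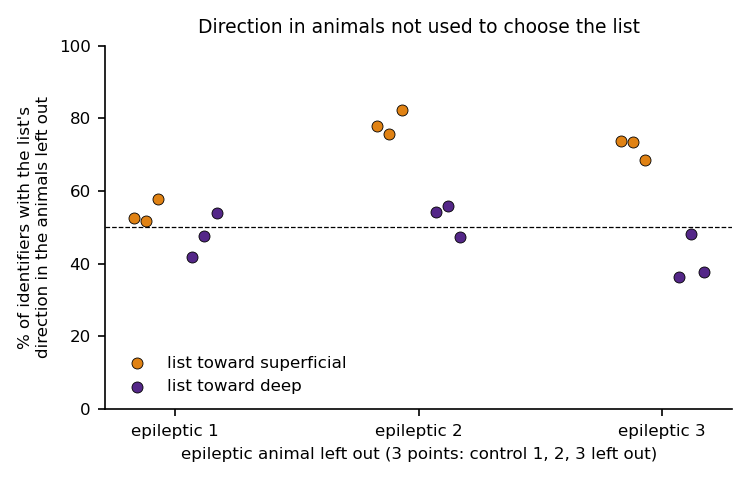
Percentage of identifiers that had the direction of their set in 1 epileptic and 1 control animal not used to choose it, by the epileptic animal left out, with 1 point for each control left out; orange sets were chosen toward superficial, purple toward deep, and the dashed line marks 50%. Orange points reach 82.2% for animal 2 and 73.7% for animal 3 but at most 57.7% for animal 1.

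Across all 9396 identifiers with a mean log2 CPM of at least 3, the sublayer profile of epileptic animal 3 stood apart from the rest. The Spearman rho of the differences of 2 animals over identifiers was 0.52 to 0.59 between controls. It was 0.48, 0.70 and 0.57 between epileptic animal 1 and controls 1, 2 and 3, and 0.37, 0.56 and 0.46 for animal 2. For animal 3 it was 0.26, 0.26 and 0.23, and 0.23 and 0.38 with epileptic animals 1 and 2. Identifiers are not independent replicates, and these values are given as a description with no test.

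The overall size of the sublayer difference overlapped between the conditions. The median absolute difference was 0.10, 0.14 and 0.10 log2 units in controls and 0.17, 0.10 and 0.10 in epileptic animals 1, 2 and 3 (two-sided exact permutation test of 3 against 3 animals, p = 0.6, which cannot go below 0.1; adjusted for 2 measures, 0.6). The share of alignments outside annotated features, superficial minus deep, was −1.80, −4.62 and −3.21 percentage points in controls and −5.24, −1.42 and 3.25 in epileptic animals 1, 2 and 3 (the same exact test, p = 0.6; adjusted, 0.6). Animal 3 was the only one with the larger share in the superficial library. With that share as a covariate in the edgeR model, 29 identifiers passed, 16 toward superficial and 13 toward deep, and the unadjusted count was 851 against 809. The number of large interactions was then 214 toward superficial and 100 toward deep.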

How the data were processed

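The 12 libraries are RNA from deep and superficial CA1 of 6 rats. For each, the authors deposited raw counts of reads per Ensembl gene. Tools listed, without settings, in the submitters' processing notes are HTSeq 0.6.1, STAR 2.5.0c, SAMtools 0.1.19 and FastQC 0.11.3, with the build Rnor_6.0. The strand setting of the counting is not given, so overlapping, antisense and near-identical genes may not be told apart. Each table ends in 5 tallies that name no gene, which entered neither the library sizes nor the tests; genes took 28.6 to 35.1% of the tallied alignments.

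Libraries were grouped by their labels, and the replicate number within a condition was taken as the animal, since the labels name 3 brains per condition as the source of both sublayers; they do not state that a number marks a brain. Deviations of the 2 libraries of an animal from their group means correlated in all 6 animals (r = 0.458 to 0.785). Libraries of a control and an epileptic animal that share only the sublayer and the number correlated less (r = −0.031 to 0.372). These pairs across conditions cannot show whether a number marks a brain, and pairs of different numbers within a condition are not given. No 2 libraries of a group were duplicates, with a chi-square per identifier of 7.29 or more. P-values rest on how much the sublayer difference varies among 3 rats per condition, but not on the identifier's own spread alone. In edgeR and limma that spread is combined with the spread of other identifiers. For ENSRNOG00000005195 the unadjusted interaction p was 2.215e-05 by edgeR and 0.003802 by limma on the per-animal differences.

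The tests were run in edgeR 4.0.16 (R 4.3.3): filterByExpr (minimum count 10, minimum total 15), TMM, the quasi-likelihood test with robust dispersions in its newer form (legacy set to FALSE, where this version's default is TRUE), a term for each animal, and Benjamini-Hochberg adjustment over all identifiers tested. SEs are approximate, taken from the log2 value and its F statistic. CPM used TMM-scaled library sizes, and log2 CPM a prior count of 2. DESeq2 1.42.0 and limma 3.58.1 were used as alternatives. The covariate fit, the legacy fit without a filter, the other scalings of the opposite-sign counts and of the unadjusted counts above the level minimum, and the sets chosen with animals left out were added after seeing the data. Named identifiers are the 2 of smallest interaction p in each direction. The rule's other parts needed gene symbols: 31 gene lists, the summed marker levels and a fit leaving out mitochondrial transcripts were not analysed here, because 0 of 32662 identifiers could be paired with a symbol. Members, lists and thresholds were chosen with earlier results of these data known.

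On simulated counts for the interaction in 14791 identifiers, edgeR called 59.7% of the 1.5-fold, 82.1% of the 2-fold and 84.8% of the 3-fold planted changes, 12 unchanged identifiers, and 1 where none had been planted. The simulation gave an identifier the same dispersion in control and epileptic libraries. Shares called where the epileptic animals vary more than the controls were not simulated.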

Additional observations from a re-analysis of the deposited data

Results flagged for a closer look

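In 3 of the 4 named identifiers, every control animal lay on one side and every epileptic animal on the other. ENSRNOG00000013578 (interaction 1.80 log2 units) and ENSRNOG00000005195 (0.58) were deep-biased in all 3 controls and superficial-biased in all 3 epileptic animals, and ENSRNOG00000001585 (−0.31) the reverse. In edgeR's test of the difference itself, none of the 3 passed (adjusted p = 0.1636, 0.1636 and 0.3036). Over all 14791 identifiers tested, 154 (1.04%) had opposite signs in the first direction and 155 (1.05%) in the second. The 4 were picked for the smallest interaction p in each direction, which favours separated differences, so their share is a description only. Among identifiers at an unadjusted p below 0.05 by edgeR, signs were opposite in 94 of 631 toward superficial and 69 of 383 toward deep.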

How the results depend on the processing

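The number of identifiers called was 0 in the edgeR fit reported and also with limma on per-animal differences, the legacy method, no robust dispersions, RLE factors, library totals, no low-count filter, only identifiers averaging 3 log2 CPM or more, and no replicate block. It was 2 with DESeq2, 106 with limma-voom with quality weights and, in alternatives chosen after seeing the data, 29 with the share of alignments outside features as a covariate and 178 with the legacy method and no filter together. Leaving out 1 animal gave 0 to 76. The unadjusted count of 1014 became 339, 2073, 514, 68 and 1660 with DESeq2, limma-voom, a mean log2 CPM of at least 3, no replicate block and the covariate, and 610 to 1705 without 1 animal. Identifiers without overlap numbered 1717 and, with 1 animal fewer, which makes overlap rarer, 2821 to 4166. The 21 class members (gained 2, lost 4, reversed 3) became 104 (10, 25, 15) with the level minimum lowered to 1 and 1 (0, 0, 1) with a size of 2-fold. Library totals gave 0 gained, 2 lost and 7 reversed. Leaving out 1 animal gave 21 to 64 members, 1 to 13 gained, 0 to 9 lost and 2 to 32 reversed. The 4 named identifiers kept their direction in every alternative run. They were chosen from the same libraries for their small interaction p, and their per-animal differences did not overlap. Their direction could therefore hardly turn, also with 1 animal left out, and its keeping is no support. ENSRNOG00000013578 was left with no value in 1 alternative, as it lay under the level minimum. Where no construction explains a change, the cause was not tested. The fit without mitochondrial transcripts was not run. With 4 residual degrees of freedom and the same dispersion in both conditions, 59.7% of simulated 1.5-fold interactions were called, and smaller ones were not simulated.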
